A study of Homo sapiens with 6 samples.

Results

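The enzymes that make and break down catecholamines were examined in LA1-55n, an established human neuroblastoma cell line, after induction of a hairpin against glycine decarboxylase (GLDC). The members were the 8 genes GCH1, TH, DDC, DBH, PNMT, CYB561, MAOA and MAOB, out of 14779 genes measured under a gene name. They were chosen by symbol as steps of the pathway, and each had 1 probe set, so no choice between probe sets was needed. Each of the 6 RNA samples had its own Affymetrix Human Gene 2.0 ST array. The shGLDC99 group (3 arrays) carried a tet-on hairpin against GLDC, and the shGFP group (3 arrays) carried a tet-on hairpin against GFP. Both groups were grown in 0.5 µg/ml doxycycline for 7 days, in RPMI medium with serum. The samples hold only 1 hairpin against GLDC, and no culture without doxycycline was analysed here, so an effect of this hairpin on other transcripts and an effect of GLDC loss cannot be told apart. The replicates were called independent by the submitters without saying what sets them apart; the p-values cover only the spread among these 6 samples, which may be technical.

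Catecholamines are built from tyrosine in a chain of enzymes. GCH1 (GTP cyclohydrolase 1) opens the synthesis of tetrahydrobiopterin, the cofactor that TH (tyrosine hydroxylase) needs to make L-DOPA, and TH is the rate-limiting enzyme of the chain. DDC (DOPA decarboxylase) turns L-DOPA into dopamine, DBH (dopamine beta-hydroxylase) turns dopamine into noradrenaline inside vesicles, and PNMT (phenylethanolamine N-methyltransferase) makes adrenaline in chromaffin cells of the adrenal medulla. CYB561 is a vesicle membrane cytochrome that passes electrons inward to restore the ascorbate that DBH consumes. The monoamine oxidases MAOA and MAOB, flavoenzymes of the outer mitochondrial membrane, start the breakdown. Neuroblastoma arises from the sympathetic lineage, and catecholamine breakdown products in urine serve in its diagnosis.

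Of these 8 enzymes, GCH1 fell and MAOB rose in shGLDC99 cells, and the other 6 did not pass the threshold. GCH1 was lower by 0.68 on the log2 scale, with 62.6% of its shGFP intensity left, and MAOB was 1.40-fold higher. Between these ends of the pathway, DDC lay within 0.17 below and 0.15 above 0 on the log2 scale at 95% confidence, and TH was higher by 0.26 with overlapping groups. "Rose" and "fell" are used where the adjusted p of limma, fitted over all 14779 genes, was under 0.05. Over all genes 8.52% passed this threshold, 3.72% as rises and 4.8% as falls. Of the genes above the background level defined below, 13.2% passed it, and 5 of the 8 enzymes lay above that level. The groups did not overlap for GCH1 and MAOB, against 30.8% of all genes. The median log2 difference of the 8 enzymes was 0.12, beside -0.01 over all genes, and 5 of the 8 were higher.

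**Figure D1:**
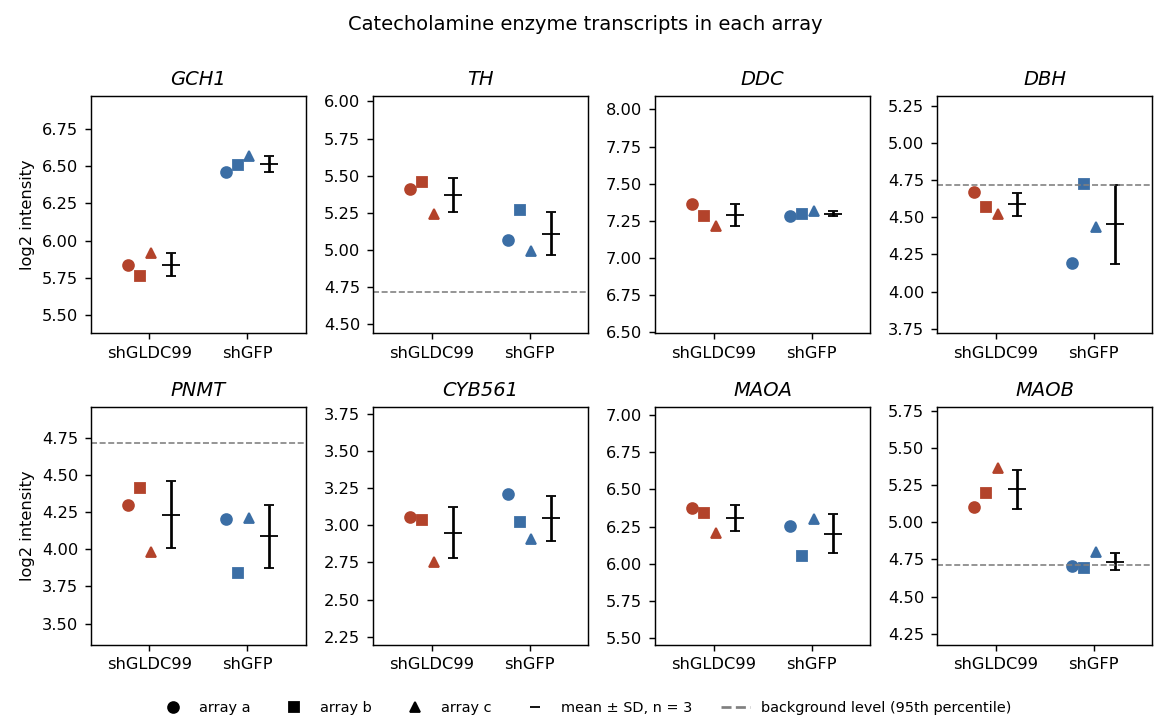
Log2 intensity (vertical axis) of the 8 enzyme transcripts in each array, shGLDC99 to the left of shGFP, with arrays a, b and c as circles, squares and triangles and the mean ± SD (n = 3) as bars. Every panel spans the same height, and the dashed line at 4.72 is the 95th percentile of 15 genes that this cell type is not known to use. The groups are apart for GCH1 and MAOB and overlap for the other 6.

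**Figure D2:**
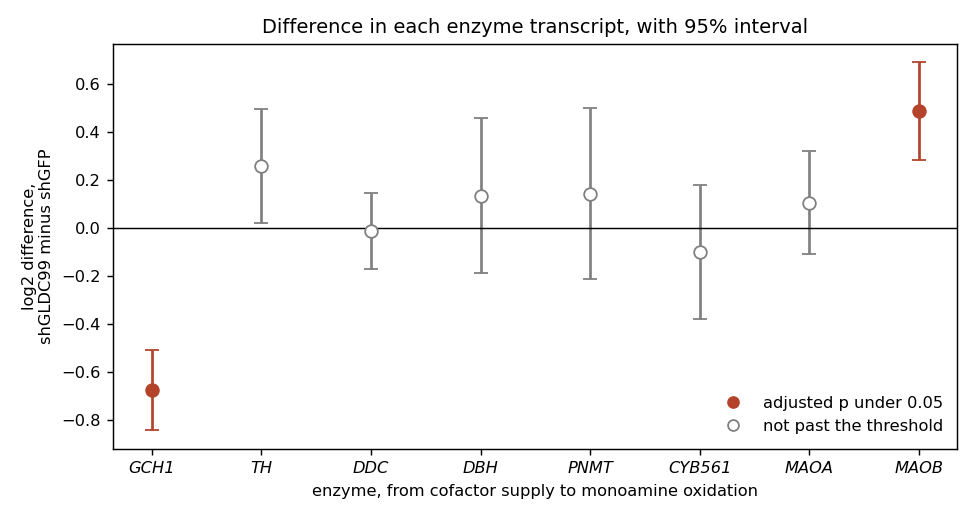
Log2 difference, shGLDC99 minus shGFP (vertical axis), of each enzyme in the order of the pathway, with the moderated 95% confidence interval. GCH1 at -0.68 and MAOB at 0.49 are filled, being past an adjusted p of 0.05, and the 6 open points are not past it.

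The values are log2 intensities from the deposited table, with the log base inferred from their range. Array medians lay between 4.28 and 4.33. Pearson correlations over all probe sets were 0.993 to 0.994 between arrays of a group, and 0.988 to 0.990 between arrays of different groups. The number of arrays limits the precision. GLDC, the target of the hairpin, read 5.98, 5.65 and 5.93 in shGLDC99 arrays a, b and c, against 7.85, 7.90 and 7.81 in shGFP arrays a, b and c. It was lower in every shGLDC99 array (log2 difference -2.00 ± 0.10, SE; adjusted p = 0.00101). For a background level, 15 measured genes of other tissues were taken, such as ALB of liver and PRL of pituitary. Their mean levels had a median of 2.92 and a 95th percentile of 4.72, and 55.8% of all genes lay above 4.72. With so few genes this line is approximate, and probe sets differ in their own background.

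The line was checked against markers of its labelled cell type. Of 17 listed markers of sympathetic neuroblasts 12 were measured, and 9 of these lay above the background level, as did 55.8% of all genes. GATA3, a transcription factor of sympathetic neurons, averaged 9.17 in shGLDC99 arrays and 9.65 in shGFP arrays. CHGA, the vesicle protein chromogranin A, averaged 7.92 in shGLDC99 arrays and 7.84 in shGFP arrays. Of the 12, PRPH (0.71), an intermediate filament of peripheral neurons, and CHGB rose, and ISL1, GATA2 and GATA3 fell, as given below. Over all genes 8.52% passed the threshold, and 13.2% of those above the background level. Whether the markers differ from these shares was not tested. The summed log2 level of the 12 was 76.5 to 78.1 in shGLDC99 arrays and 76.8 to 78.6 in shGFP arrays, so the groups overlapped. The 3 at or below the background level were DBH, HAND1 and STMN2. All 4 measured markers of Schwann or glial cells lay below the background level, and 0 of them changed. Of 7 measured fibroblast or mesenchymal markers, 4 lay above it. Among these was PRRX1, which averaged 7.23 in shGLDC99 arrays and 7.25 in shGFP arrays, so the markers above the background level were not of the sympathetic list alone.

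GCH1 carried the only fall among the enzymes. Its log2 intensity was 5.84, 5.76 and 5.92 in shGLDC99 arrays a, b and c, against 6.46, 6.51 and 6.57 in shGFP arrays a, b and c. All 3 shGLDC99 arrays were below all 3 shGFP arrays. The means were 5.84 ± 0.0770 in shGLDC99 cells and 6.51 ± 0.0547 in shGFP cells (SD, n = 3 each), all above the background level. In log2 units shGLDC99 minus shGFP was -0.68 ± 0.0704 (SE), 1.60-fold lower, and its 95% interval was -0.84 to -0.51 (limma adjusted p = 0.00551). Its size ranked 229th among the 14779 genes. By exact permutation of the arrays (two-sided) p was 0.1, which is the lower limit for 3 against 3. Without each array in turn the log2 difference stayed between -0.71 and -0.64 and the adjusted p between 0.0225 and 0.0286.

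The other genes of tetrahydrobiopterin supply did not pass the threshold. Of 11 listed, 7 were measured, 0 rose and 0 fell, with a median log2 difference of 0.09. The threshold was passed by 8.52% of all genes. PCBD1, the dehydratase that recycles the pterin after each hydroxylation, differed by 0.30 ± 0.0948 (SE, limma adjusted p = 0.103). Its groups did not overlap, as held for 30.8% of all genes. PTS, which follows GCH1 in the synthesis, differed by -0.09 (adjusted p = 0.566), and QDPR, the reductase that completes the recycling, by 0.13 (adjusted p = 0.455). HPRT1, a purine salvage enzyme listed for the supply of GTP, differed by -0.27 (adjusted p = 0.140), also without overlap of the groups. GCHFR, whose protein binds GCH1 and mediates its feedback inhibition, lay below the background level and differed by 0.09 (adjusted p = 0.803). When the prior variance was allowed to follow intensity, PCBD1 (adjusted p = 0.0413) and HPRT1 (adjusted p = 0.0434) passed the threshold.

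TH was higher on average in shGLDC99 cells, but the groups overlapped. It read 5.41, 5.46 and 5.24 in shGLDC99 arrays a, b and c, against 5.07, 5.27 and 4.99 in shGFP arrays a, b and c. The shGLDC99 array c lay below the shGFP array b, which stood above the other shGFP arrays. The log2 difference was 0.26 ± 0.0998 (SE), with a 95% interval of 0.02 to 0.50, or 1.02-fold to 1.41-fold. Its p was 0.0362 before adjustment and 0.169 after adjustment over all genes, so it did not pass the threshold. Without each array in turn the difference was 0.20 to 0.34 and did not pass the threshold.

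DDC showed the narrowest interval of the 8. It read 7.37, 7.28 and 7.22 in shGLDC99 arrays, against 7.28, 7.30 and 7.32 in shGFP arrays (a, b and c in each). The shGFP arrays lay inside the range of the shGLDC99 arrays. The log2 difference was -0.01 ± 0.0661 (SE; adjusted p = 0.939), and the 95% interval ran from 0.889-fold to 1.11-fold.

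DBH, PNMT and CYB561 averaged below the background level, so their differences are weakly determined. DBH read 4.67, 4.57 and 4.52 in shGLDC99 arrays a, b and c, against 4.20, 4.73 and 4.43 in shGFP arrays a, b and c. The shGFP arrays were spread more widely (SD 0.267) than the shGLDC99 arrays (SD 0.0770), and the range of the shGLDC99 arrays lay inside theirs. The log2 difference was 0.13 ± 0.136 (SE; adjusted p = 0.610), and it ran from 0.01 to 0.27 when single arrays were left out.

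PNMT, the adrenaline-forming step, read 4.30, 4.41 and 3.98 in shGLDC99 arrays, against 4.21, 3.84 and 4.21 in shGFP arrays (a, b and c in each). The groups overlapped, and 1 array of each group lay apart from its other 2. The log2 difference was 0.14 ± 0.149 (SE; adjusted p = 0.619). CYB561 read 3.06, 3.04 and 2.75 in shGLDC99 arrays, against 3.21, 3.02 and 2.91 in shGFP arrays, with overlapping groups and a log2 difference of -0.10 ± 0.117 (SE; adjusted p = 0.674). Against 8.52% of all genes, 0 changed of the 4 measured among 12 listed other cofactor, copper and ascorbate genes. These were the copper chaperone ATOX1 (-0.11), the ferrireductase CYBRD1 (0.12), which is also a b561 cytochrome, and the CYB561 relatives CYB561D1 (0.05) and CYB561D2 (-0.03). CYB561 and its 3 measured relatives all lay within 0.12 of 0 on the log2 scale.

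MAOA and MAOB catalyse the same reaction with different substrate preferences, MAOA for serotonin and noradrenaline and MAOB for phenylethylamine, while both oxidise dopamine. They lie next to each other on chromosome X. MAOB read 5.11, 5.19 and 5.36 in shGLDC99 arrays a, b and c, against 4.71, 4.69 and 4.80 in shGFP arrays a, b and c. All 3 shGLDC99 arrays were above all 3 shGFP arrays. The means were 5.22 ± 0.131 in shGLDC99 cells and 4.73 ± 0.0573 in shGFP cells (SD, n = 3 each). The log2 difference was 0.49 ± 0.0851 (SE), with a 95% interval of 0.29 to 0.69 (limma adjusted p = 0.0207), and its size ranked 669th of 14779.

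The shGFP mean of MAOB lay within 0.02 of the background level of 4.72, with shGFP arrays a and b just below it. The MAOB transcript is thus not shown to exceed background in shGFP cells, and the size of its rise is uncertain. The call was lost without any 1 of 5 arrays. Its adjusted p was 0.0638 without shGLDC99 b, 0.0536 without shGLDC99 c, 0.0697 without shGFP a, 0.0736 without shGFP b and 0.0567 without shGFP c, and it was 0.0404 without shGLDC99 a. The log2 difference itself stayed between 0.42 and 0.55.

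MAOA read 6.38, 6.34 and 6.21 in shGLDC99 arrays a, b and c, against 6.25, 6.05 and 6.30 in shGFP arrays a, b and c. The groups overlapped, with a log2 difference of 0.11 ± 0.0904 (SE; adjusted p = 0.538) and a 95% interval of -0.11 to 0.32. To compare the oxidases, the log2 intensity of MAOA was subtracted from that of MAOB in each array. Since different probe sets are not on a common scale, only the change of this value between groups is read. It was -1.27, -1.15 and -0.84 in shGLDC99 arrays a, b and c, against -1.54, -1.36 and -1.50 in shGFP arrays a, b and c. It was higher in all 3 shGLDC99 arrays, by 0.38 on average, and the exact two-sided permutation test gave p = 0.1, the smallest possible with 3 against 3. The pair was chosen with the rise of MAOB known, and the value carries that rise and the faint MAOB signal of shGFP cells, so it is given as a description.

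**Figure D3:**
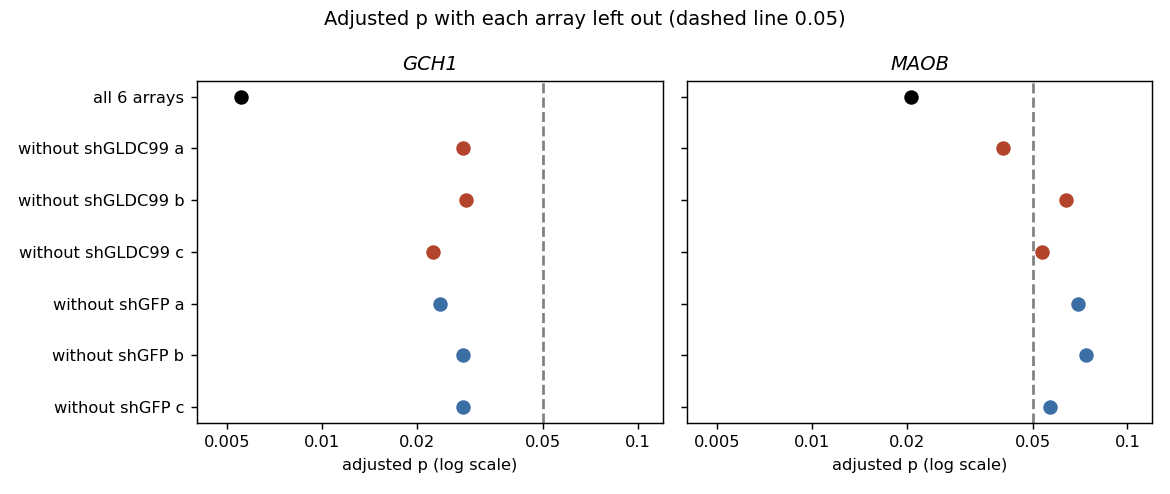
Adjusted p on a log axis for GCH1 (left) and MAOB (right) with all 6 arrays (black) and with each shGLDC99 array (red) or shGFP array (blue) left out; the dashed line marks 0.05. GCH1 stays between 0.0225 and 0.0286 without an array, while MAOB runs from 0.0404 to 0.0736.

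The sequences before the start sites of the oxidases are shown because this pair gave different calls. A difference in calls does not show that MAOA and MAOB responded differently. The 95% intervals of their log2 differences overlapped (-0.11 to 0.32 for MAOA and 0.29 to 0.69 for MAOB). RefSeq (GRCh38.p14) promoter windows were at hand for 5 of the 8 members, DDC, DBH, CYB561, MAOA and MAOB, in 9 windows since some have several starts. Each line gives the 250 bases before the start site, 5′ to 3′ on the strand of the gene, with GGGCGG and its reverse complement CCGCCC in capitals. This hexamer is the core of the GC box bound by factors of the SP1 family. The MAOB window is chrX:43882451-43882700 on the minus strand, and the MAOA window is chrX:43656049-43656298 on the plus strand.
MAOB: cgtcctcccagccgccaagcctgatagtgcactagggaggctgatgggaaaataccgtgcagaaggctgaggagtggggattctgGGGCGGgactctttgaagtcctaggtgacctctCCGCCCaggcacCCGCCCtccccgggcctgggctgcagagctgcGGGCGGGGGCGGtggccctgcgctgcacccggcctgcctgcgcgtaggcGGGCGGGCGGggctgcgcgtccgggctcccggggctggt
MAOA: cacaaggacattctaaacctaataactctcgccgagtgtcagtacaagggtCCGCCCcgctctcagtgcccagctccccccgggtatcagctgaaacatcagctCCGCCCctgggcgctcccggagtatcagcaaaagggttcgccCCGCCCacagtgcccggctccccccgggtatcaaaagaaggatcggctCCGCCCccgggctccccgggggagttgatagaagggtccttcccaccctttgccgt

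MAOB held 7 matches, 5 on its own strand and 2 on the other, with the pair nearest the start site sharing letters, and MAOA held 4, all on the other strand. Over all 35116 windows, 42.6% held at least 1 match, 7.63% at least 4 and 1.12% at least 7. The GC content was 72.0% for MAOB and 63.2% for MAOA, beside a median of 58.0% over all windows, and GC-rich windows hold this motif more often by base composition alone. CCAAT and TATAAA, searched on both strands, and TGACGTCA, the palindromic full cyclic AMP response element, had 0 matches in these 2 windows. They were found in 32%, 10.7% and 1.65% of all windows. SP1 itself differed by -0.26 ± 0.0793 (SE, limma adjusted p = 0.0930). With the prior variance following intensity its limma adjusted p was 0.0142. All shGLDC99 arrays were below all shGFP arrays for SP1, and the groups did not overlap for 30.8% of all genes. These matches describe letters in the windows and are no evidence of binding.

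Among other genes of amine breakdown, the aldehyde dehydrogenase ALDH2 rose. This mitochondrial enzyme oxidises aldehydes, among them those that monoamine oxidases produce. It averaged 7.68 in shGLDC99 arrays and 7.29 in shGFP arrays, a log2 difference of 0.38 ± 0.0667 (SE; adjusted p = 0.0203). Of 25 listed breakdown genes 7 were measured, with a median of 0.03. Of these 1 rose, 0 fell and 6 did not pass the threshold, which 8.52% of all genes passed. The call of ALDH2 was lost without any 1 of the 6 arrays (adjusted p 0.0520 to 0.0728), while its difference stayed between 0.36 and 0.42.

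The list of other aromatic amine enzymes and of relatives of DBH held 1 rise. PAM, a copper and ascorbate enzyme related to DBH that amidates neuropeptides in vesicles, averaged 5.93 in shGLDC99 arrays and 5.32 in shGFP arrays. Its log2 difference was 0.61 ± 0.0682 (SE; adjusted p = 0.00657), and it passed the threshold without any 1 array. Of 16 listed genes 10 were measured, with a median of -0.06. Of these 1 rose, 0 fell and 9 did not pass the threshold, which 8.52% of all genes passed. Of the 10, 6 lay below the background level, among them TPH2, the neuronal tryptophan hydroxylase, at 2.38 in shGLDC99 arrays and 2.00 in shGFP arrays. Of 10 genes of amine storage and transport only the vesicle protein SV2C was measured (log2 difference -0.0037, adjusted p = 0.985). The vesicular and plasma membrane amine transporters SLC18A1, SLC18A2 and SLC6A2 had no named probe set.

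The list of transcription factors held factors of catecholamine-producing cells and others not particular to them, such as REST, EGR1, CREB1 and SP1. Its counts and median therefore do not describe lineage factors alone. Of 23 listed, 14 were measured, of which 1 rose, 5 fell and 8 did not pass the threshold. Over all genes 3.72% rose and 4.8% fell. The list median was -0.19, beside -0.01 over all genes. REST, a repressor of neuronal genes, fell by 1.39, and EGR1, an immediate early factor known in rat to act on the TH and PNMT promoters, fell by 0.71. ISL1, GATA2 and GATA3, factors of sympathetic neuron development, fell by 1.09, 0.56 and 0.48, and INSM1, a zinc finger factor of neuroendocrine cells, rose by 0.26. PHOX2A, which acts on the DBH promoter, differed by -0.21 (adjusted p = 0.166), and CREB1, the cyclic AMP response factor, by -0.17 (adjusted p = 0.155; 0.0327 with the prior variance following intensity). ISL1 had 2 probe sets; the dimmer, below the background level, differed by -0.34 (adjusted p = 0.308 over all probe sets), and their mean by -0.71 (adjusted p = 0.00609). REST, EGR1 and ISL1, each by its brightest probe set, passed the threshold without any 1 array. GATA2 was lost without shGFP b or c (adjusted p up to 0.0509), GATA3 without any 1 array other than shGFP a (up to 0.0625), and INSM1 without any 1 of the 6 (0.0912 to 0.129).

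Over the 6 lists, 43 of 97 genes were measured, of which 3 rose, 5 fell and 35 did not pass the threshold, and the median was -0.03. Over all genes 8.52% passed the threshold, and 13.2% of those above the background level, where 28 of the 43 lay; whether the lists differ from these shares was not tested. Among them, the changes in enzyme transcripts were the rises of ALDH2 and PAM, and the other 6 changes were in transcription factors. Without shGLDC99 a, b or c, 5 genes of the lists passed the threshold, without shGFP b or c 4, and without shGFP a 6. In those fits 461 to 546 of all 14779 genes passed it, against 1259 with all 6 arrays.

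**Figure D4:**
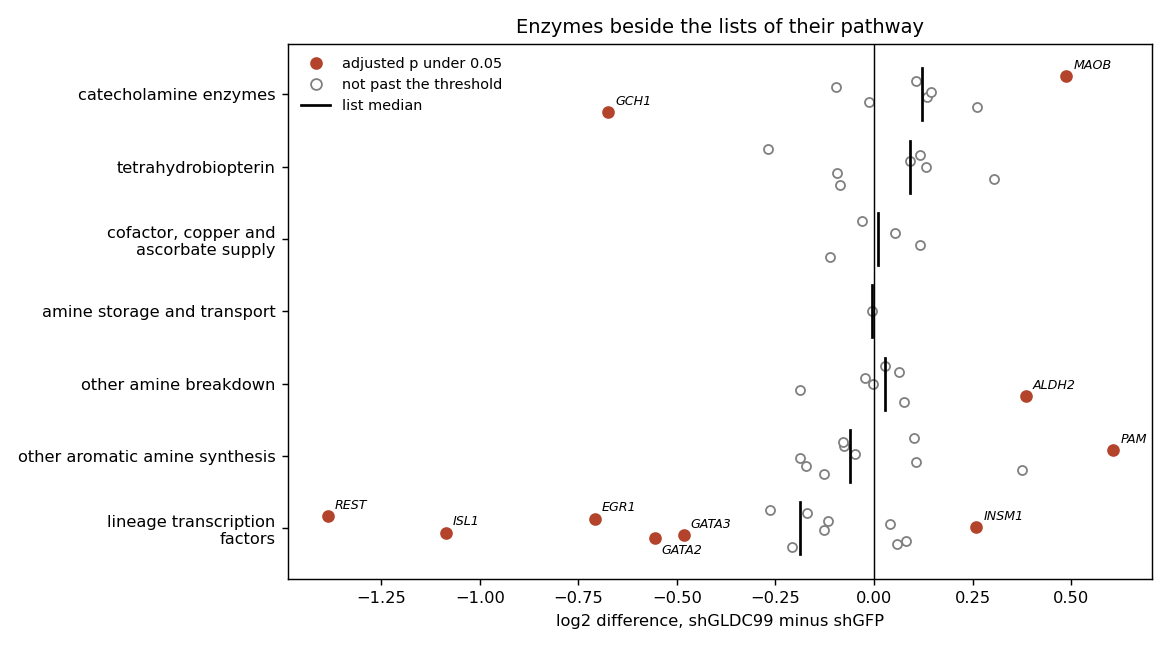
Log2 difference, shGLDC99 minus shGFP (horizontal axis), of the 8 enzymes (top row) and of each measured gene in 6 lists of their pathway, with the list median as a vertical bar. Filled and named points have an adjusted p under 0.05: GCH1 at -0.68 and MAOB at 0.49 in the top row, ALDH2, PAM and 6 transcription factors below.

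Single markers listed for other cell types also passed the threshold, as did 8.52% of all genes and 13.2% of those above the background level. Of 7 measured fibroblast or mesenchymal markers, fibronectin (FN1) fell by 1.43 and vimentin (VIM) by 0.37, LUM rose by 0.52 from below the background level, and 4 did not pass the threshold. The summed log2 level of these 7 was 36.1 to 36.2 in shGLDC99 arrays and 37.4 to 38.1 in shGFP arrays, with 4 of the 7 above the background level. FN1 was then left out, after its value was seen. The sum of the other 6 was 30.0 to 30.4 in shGLDC99 arrays and 30.1 to 30.6 in shGFP arrays, so these sums overlapped. Taken singly, 4 of the 7 had groups that did not overlap, as held for 30.8% of all genes. FN1, VIM and TWIST1 (log2 difference -0.26, limma adjusted p = 0.0706) were lower, and LUM was higher. VIM had 2 probe sets; the dimmer differed by -0.05, and their mean by -0.21 (adjusted p = 0.144), which did not pass the threshold. The VIM call was also lost without any 1 array other than shGFP a, and the LUM call without shGFP b. Of 6 measured chromaffin markers, CHGB rose by 0.41 and 0 fell, with 4 of the 6 below the background level, PNMT, PENK, DLK1 and CARTPT. CHGB was also listed as a marker of sympathetic neuroblasts. The CHGB call was lost without shGLDC99 a or any 1 shGFP array (adjusted p up to 0.0572). The summed level of the 6 was 29.3 to 30.9 in shGLDC99 arrays and 29.4 to 29.9 in shGFP arrays, so the groups overlapped. Of 3 measured markers of midbrain dopamine neurons, 0 changed. The part of these markers in the differences of GCH1 and MAOB was not tested. In bulk RNA, fewer cells with a transcript and less transcript per cell cannot be told apart.

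Genes whose 6 values ran most like those of GCH1 and MAOB were listed by Pearson correlation, among genes at or above the median level with a log2 difference of at least 0.3 in size. For GCH1 these were BARD1 (r = 0.998), TMEM123 (r = 0.997) and HSPB1 (r = 0.997), of 1348 genes. For MAOB they were ELMOD2 (r = 0.995), BTBD1 (r = 0.995) and SERINC5 (r = 0.994), of 1349 genes. Over 6 arrays in 2 groups such values mostly restate the group difference and are given as a description. The choice by correlation and by size of difference also set the direction of these genes. Those nearest to GCH1 were lower in shGLDC99 cells, by 0.84, 0.52 and 0.69 in that order. Those nearest to MAOB were higher, by 0.34, 0.36 and 0.38.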

How the data were processed

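The authors deposited 1 table of log2 intensities per probe set and array. Partek was used, per the submitters' processing notes; its version and the steps it ran (background, normalization, summary of probes) were not given in the sources used here. The log2 scale is inferred: a 16-bit scanner allows at most 11.09 in natural log units, and the table reaches 13.28. Of 31135 probe sets, 15098 carried 1 gene symbol in the platform annotation, 0 several and 16037 none; all 15098 matched RefSeq by Entrez ID. They covered 14779 genes, each represented by its probe set with the highest mean. No further normalization or filter was applied.

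Groups were compared with limma 3.58.1 in R 4.3.3 (lmFit, eBayes, two-sided, no covariates, Benjamini-Hochberg over all genes, threshold 0.05). In simulated 3 against 3 arrays, 200 of 14779 genes were changed. The model recovered 46% of genes changed by 0.5 (log2) and 96% of those changed by 1, and 9 of 151 calls were false. The data gave 1259 calls, so the simulated setting differs and these shares need not hold here. The members and lists were chosen with earlier results of these data known. Named genes were all members, GLDC, and from each list every gene past the threshold or otherwise up to 3 with the smallest adjusted p; PTS, GCHFR, CYB561D2, TPH2, SP1, CREB1, PHOX2A and the cell markers were named for their roles, after their values were seen. The labels do not state whether the letters a, b and c pair the samples, so the block is an alternative. Within a letter, deviations from group means had correlations of -0.01 to 0.02, which do not settle whether samples were paired. Figures used matplotlib 3.10.9.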

Additional observations from a re-analysis of the deposited data

How the results depend on the processing

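The fall of GCH1 kept its direction and passed the threshold in all 16 alternatives, with log2 differences of -0.71 to -0.64 and adjusted p of 8.22e-05 to 0.0419. MAOB kept its direction in all 16 and lost its call in 8: at 0.49 with the replicate block (adjusted p = 0.0584), at 0.49 without moderation (adjusted p = 0.0542), at 0.49 under an adjusted p of 0.01, and without any 1 array other than shGLDC99 a (0.42 to 0.55 over the 6). The count of changed enzymes was then 1, against 2 with all arrays, and it was 1 to 2 without single arrays. The other 6 enzymes did not pass the threshold in any alternative run. Without shGLDC99 c the sign turned for DDC (range without single arrays -0.0508 to 0.0236) and CYB561 (-0.168 to 0.00115).

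The count of changed genes, 1259 in all, was 2438 with an intensity trend, 2221 of 8868 when the dimmest 40% were left out, 229 with the replicate block, 275 under an adjusted p of 0.01 and 461 to 546 without single arrays. The changed pathway genes, 8 of 43, were 4 with the replicate block, 4 under an adjusted p of 0.01, 12 with an intensity trend (PCBD1, HPRT1, SP1 and CREB1 in addition) and 4 to 6 without single arrays. The cause of these shifts was not tested. PNMT and CYB561 were among the dimmest 40% and have no value in that setting. Whether the letters pair the samples is not stated. The 6 arrays and a faint signal of DBH, PNMT, CYB561 and, in shGFP cells, MAOB limit what can be seen.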
